A study of Mus musculus with 2 samples.

Results

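The genes of the synaptic vesicle release machinery were described in RNA from the mouse suprachiasmatic nucleus (SCN), a small hypothalamic cell group that acts as the master circadian clock. Its 43 members are the rows of the deposited gene table with one of 43 gene symbols, and all 43 were found, out of 24229 genes. Tissue came from wild-type C57BL/6 mice of postnatal day 68. They entered the experiment at an age of 5 to 6 weeks and first spent 7 days in constant darkness. One group was then entrained to a short (ST) and one to a normal (NT) T-cycle, which is a repeating schedule of light and dark with a fixed period that the labels do not state. After 4 weeks both were returned to constant darkness for 5 days and sampled at circadian time 4 h, when the SCN was dissected from slices of 250 µm. The labels name 8 mice per group and give 1 library per group, and the number of mice behind each library is not given in the sources used here. With 1 library per group there was no replicate error and no p-value was computed. Every difference below compares 2 libraries, and every interval is a 95% interval of the ratio that covers counting error only.

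Neurons store transmitter in vesicles and release it when calcium enters the terminal. SNARE proteins on the vesicle (Vamp1, Vamp2) and on the plasma membrane (Snap25, Stx1a) zip together and fuse both membranes, synaptotagmins sense the calcium, and complexins hold the assembled SNAREs ready. Munc13 and CAPS proteins prime docked vesicles, Rab3 and RIM proteins tether them to the active zone that bassoon and piccolo build, and Nsf with its cofactors takes used SNAREs apart. SCN neurons release GABA from small vesicles and peptides such as vasopressin and VIP from dense-core vesicles.

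All 43 genes were expressed in both libraries, and none differed by 2-fold. The ratio of ST to NT, on counts scaled for depth, lay within 1.2-fold for 41 of 43 members, against 90.5% of the 14343 genes whose normalised count averaged at least 50, called measured genes here. The remaining 2, Rab3d and Sv2c, had the fewest counts, and their intervals held 1. The median log2 ratio of the members was -0.02, with quartiles of -0.09 and 0.05, and that of all measured genes was 0.00, with quartiles of -0.08 and 0.07. No member was at least 2-fold higher (0.0209% of measured genes were) or at least 2-fold lower (0.23%). At 1.2-fold with the interval clear of 1, 0 members were higher and 0 lower, against 1.73% and 3.67% of measured genes.

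Small differences ran in both directions. Of the 43 log2 ratios, 18 were above 0 (49.2% of measured genes) and 25 below 0 (50.8%). The interval lay above 1 for 8 members (7.81% of measured genes) and below 1 for 10 (10.2%), and held 1 for the other 25. The 8 were Unc13b, Bsn, Pclo, Rab3b, Rab3a, Unc13a, Napa and Syp. The 10 were Sypl, Doc2b, Syt10, Rab3c, Syn3, Cplx2, Vamp1, Syt1, Syt11 and Syt4. Members were sequenced deeply, with a median normalised count of 3073 against 621 for measured genes, which narrows their intervals. Among genes whose normalised count averaged at least 1000, a limit chosen after the data had been seen, the interval lay above 1 for 12.8% and below 1 for 14.1%. Of the 32 members above that limit, 7 had an interval above 1 and 9 below. Counts that are not whole, which arise when reads are divided between features, marked 16 of the 43 members. Among the 27 with whole counts, 3 intervals lay above 1 and 5 below, against 7.47% and 11.1% of the 8243 measured genes with whole counts.

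**Figure D1:**
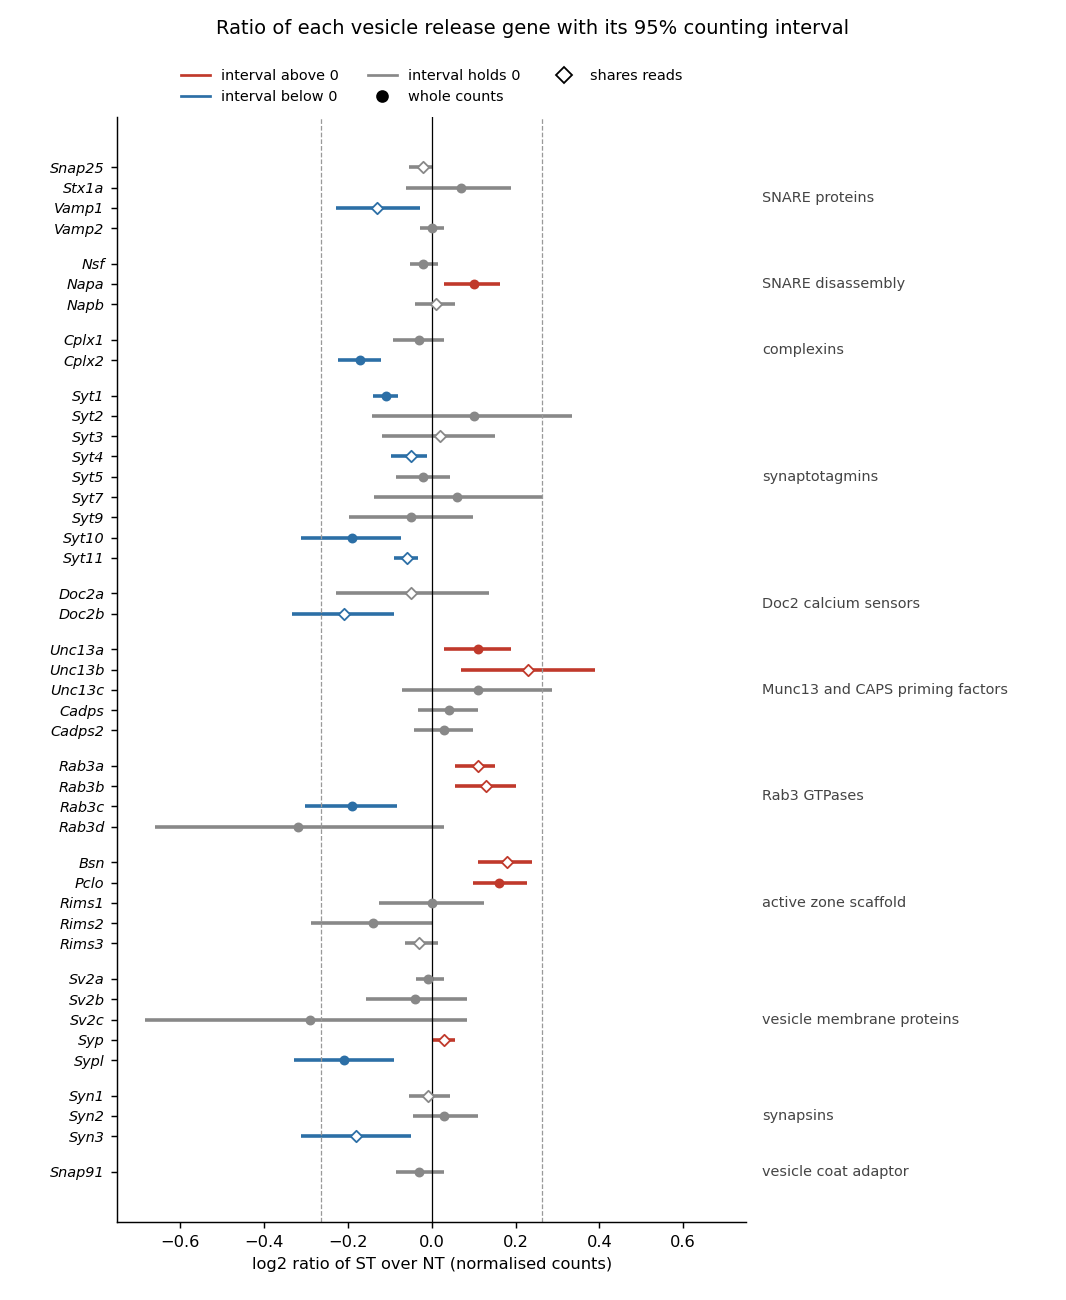
Log2 ratio of ST over NT for each of the 43 genes, grouped by role, with 95% counting intervals as lines. Circles mark whole counts and diamonds mark shared reads; dashed lines mark 1.2-fold. The points stay between -0.32 (Rab3d) and 0.23 (Unc13b).

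**Figure D2:**
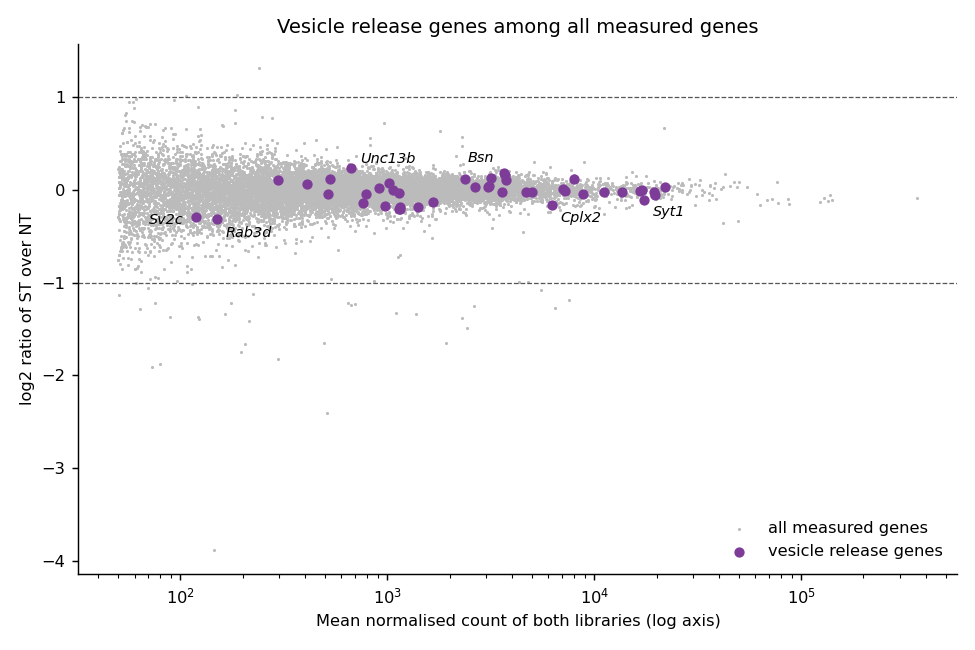
Log2 ratio of ST over NT against the mean normalised count (log axis) for 14343 measured genes in grey and the 43 vesicle release genes in purple; dashed lines mark 2-fold. The purple points lie inside the grey band at every depth.

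The upstream sequences that held a clock-related motif are shown first, since the mice differed in their light schedule. RefSeq windows of 250 bases before the gene start, on build GRCm38.p6, were matched for 34 of the 43 genes. They were searched on both strands for CACGTG (the E-box bound by CLOCK and its partner), TGACGTCA (the cAMP response element, CRE) and TTATGTAA (a D-box). No matches overlapped one another in the members' windows. An E-box stood in a window of 5 members, Napa, Unc13b, Nsf, Cadps2 and Sv2b, which is 14.7% of the 34 against 6.86% of all genes with a window. Windows of members were also richer in G and C, with a median of 61.2% against 52.4%. The CRE letters were found in Syn1 alone, 2.94% of the 34 against 1.77% of all genes, and the D-box letters in 0 members against 0.977% of all genes. Both E-box genes with an interval above 1, Napa and Unc13b, are printed with Syn1, and capitals mark the motif. The remaining E-box members, Nsf, Cadps2 and Sv2b, had intervals that held 1, at ST to NT ratios of 0.989, 1.02 and 0.975. Whether the motif and the ratios are related was not tested. The Napa window (GRCm38.p6 chr7:16098330-16098579, forward strand) held 3 E-boxes. At least 3, a limit matched to the count in this window, were found in 20 of 32851 windows. The Unc13b window is chr4:43058703-43058952 (forward strand), with 1 E-box, and the Syn1 window chrX:20920919-20921168 (reverse strand). A match describes letters only, and binding was not measured.
Napa: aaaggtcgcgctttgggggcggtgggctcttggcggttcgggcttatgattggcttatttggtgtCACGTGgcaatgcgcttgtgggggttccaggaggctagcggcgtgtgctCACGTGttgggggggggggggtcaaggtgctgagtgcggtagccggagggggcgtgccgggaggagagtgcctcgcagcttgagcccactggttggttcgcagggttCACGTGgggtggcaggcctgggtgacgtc
Unc13b: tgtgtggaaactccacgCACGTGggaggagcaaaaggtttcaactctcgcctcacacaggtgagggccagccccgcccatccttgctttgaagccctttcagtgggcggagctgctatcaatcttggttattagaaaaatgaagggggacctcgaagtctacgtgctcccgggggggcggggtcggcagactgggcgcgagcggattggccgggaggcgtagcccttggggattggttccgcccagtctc
Syn1: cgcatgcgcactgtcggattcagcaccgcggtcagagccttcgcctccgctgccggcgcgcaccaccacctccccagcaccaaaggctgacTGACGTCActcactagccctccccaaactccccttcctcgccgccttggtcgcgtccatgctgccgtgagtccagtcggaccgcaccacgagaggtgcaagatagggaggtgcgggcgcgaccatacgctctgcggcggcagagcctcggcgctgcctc

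Of the SNARE proteins, Vamp2 (synaptobrevin of the vesicle) was the most abundant member of the whole machinery. Its level was 204 RPKM (reads per kilobase of gene, scaled to the library total) in ST and 202 in NT, with a log2 ratio of 0.00 (interval of the ratio 0.980 to 1.02). Snap25, a SNARE of the plasma membrane, had 17142 counts in ST against 22012 in NT, or 130 and 131 RPKM, and a log2 ratio of -0.02. The NT to ST ratio of Snap25 had an interval of 0.997 to 1.04. Stx1a, syntaxin of the plasma membrane, was much less abundant, at 17.8 and 16.9 RPKM, with a log2 ratio of 0.07 (0.958 to 1.14). Only Vamp1, the second vesicle SNARE, had an interval clear of 1 in this role. It had 1414 counts in ST against 1950 in NT, 1.09-fold lower in ST (1.02 to 1.17). The ST library was thus the lower one for Vamp1 by a small amount, and the other 3 were equal within counting error. Vamp1 and Snap25 share reads with other features.

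The factors that take SNAREs apart were also close to equal. Nsf, the ATPase, stood at 77.0 RPKM in ST and 77.3 in NT, with a log2 ratio of -0.02 (0.965 to 1.01). Napa and Napb encode the alpha and beta forms of the cofactor that links Nsf to SNAREs. Napa had 3439 counts in ST against 4055 in NT, 1.07-fold higher in ST (1.02 to 1.12), and lies on mm9 chromosome 7 from 16683807 to 16703324. Napb, at 46.0 and 45.4 RPKM, had a ratio of 1.01 (0.972 to 1.04). Napa therefore stood above Napb in ST relative to NT by a factor of 1.06 (1.01 to 1.13). Napb shares reads with other features, and Napa does not.

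Complexins differed from each other. Cplx1 had 4380 counts in ST against 5662 in NT, with a ratio of 0.976 (0.938 to 1.02). Cplx2, on mm9 chromosome 13 from 54472713 to 54485278, had 5204 counts in ST against 7399 in NT, 1.13-fold lower in ST (1.09 to 1.17). Both genes have whole counts. The Cplx1 to Cplx2 count ratio was 0.842 in ST and 0.765 in NT, a factor of 1.10 (1.04 to 1.16), which does not depend on how the libraries were scaled.

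Calcium sensors among the members had intervals that held 1 or lay below it. Of 9 member synaptotagmins, 4 had an interval below 1 (10.2% of measured genes) and 0 above (7.81%). Their log2 ratios were above 0 for 3 and below 0 for 6, with a median of -0.05. Outside the members, Syt6, Syt12, Syt13, Syt16 and Syt17 had intervals that held 1. Their log2 ratios were 0.05, 0.02, 0.03, -0.10 and -0.04. Syt1, the main sensor of fast release, had 14868 counts in ST against 20258 in NT and was 1.08-fold lower in ST (1.06 to 1.10). Syt10, a synaptotagmin so typical of the SCN that its locus is used to drive Cre there, had 953 counts in ST against 1375 in NT. Syt10 was 1.14-fold lower in ST (1.05 to 1.24), on mm9 chromosome 15 from 89612824 to 89672291. Both have whole counts, and both were lower in the ST library. Syt11, which does not bind calcium in the usual way, was the most abundant synaptotagmin at 170 and 176 RPKM and had a ratio of 0.958 (0.939 to 0.977). Syt4, an atypical member found on dense-core vesicles, was at 101 and 104 RPKM (0.935 to 0.992). Syt11 and Syt4 share reads with other features.

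Other synaptotagmins had intervals that held 1. Syt5 stood at 93.4 RPKM in ST and 93.8 in NT, with a log2 ratio of -0.02. Syt3 (13.5 and 13.3 RPKM), Syt7, a slow high-affinity sensor (11.4 and 10.8), and Syt9 (8.89 and 9.14) were lower in level and had log2 ratios of 0.02, 0.06 and -0.05. Syt2, the fast sensor of hindbrain synapses, was near the bottom at 1.92 and 1.78 RPKM, with a log2 ratio of 0.10. The related sensors Doc2a and Doc2b, linked to spontaneous release, both share reads. Doc2b had 937 counts in ST against 1370 in NT, 1.16-fold lower in ST (1.07 to 1.26), while Doc2a had 451 and 588 with an interval from 0.854 to 1.10. The interval for the Doc2a to Doc2b contrast held 1.

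**Figure D3:**
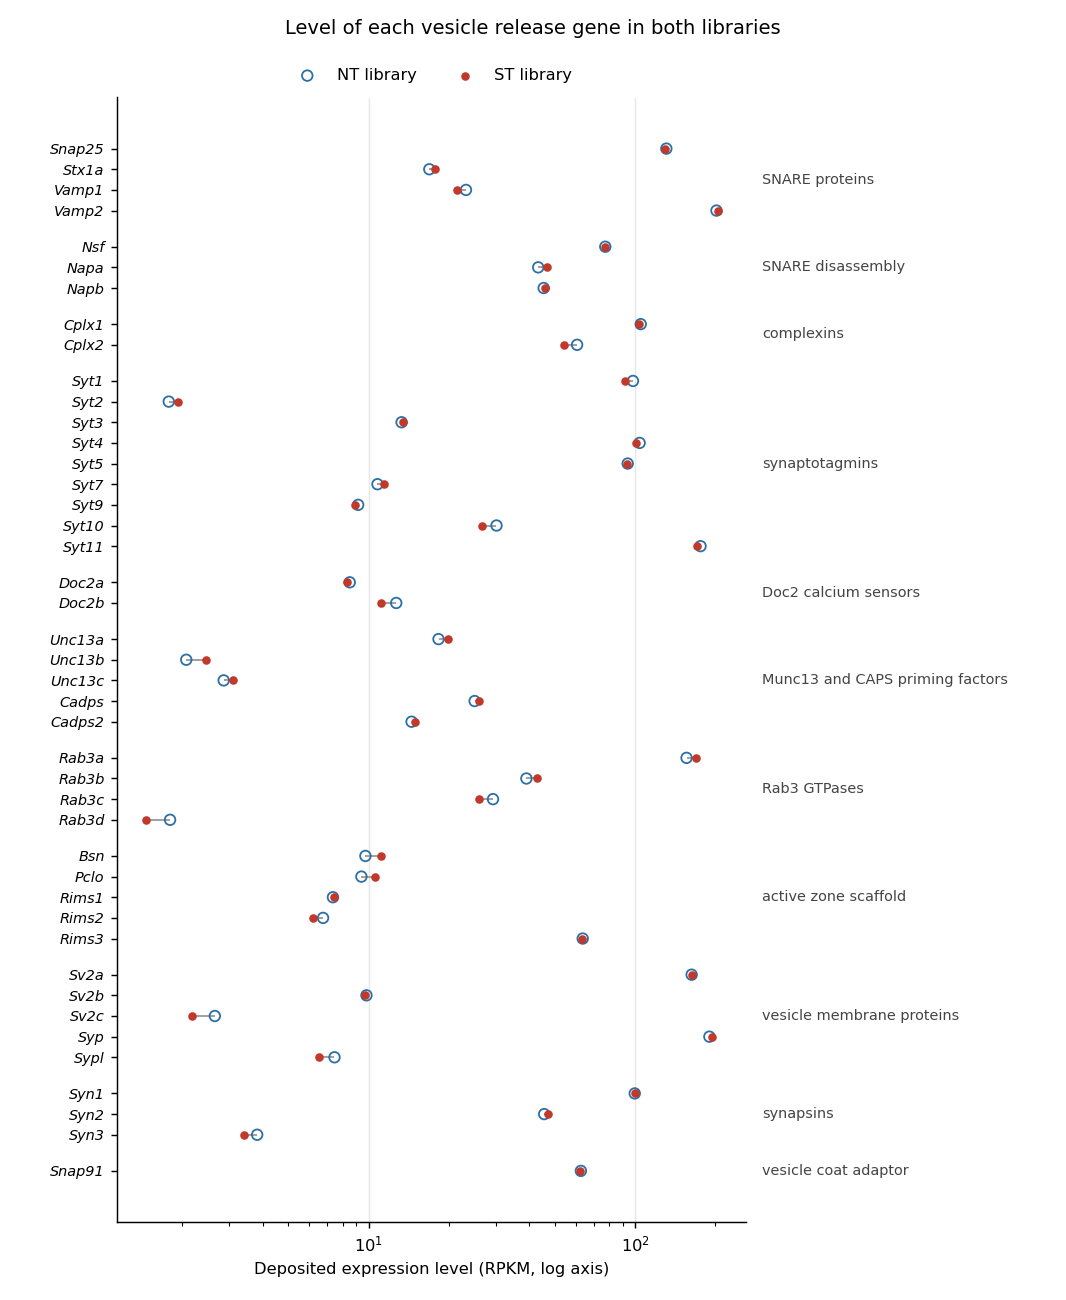
Deposited RPKM (log axis) of each gene in the ST library (filled red) and the NT library (open blue), grouped by role. Levels run from 1.46 (Rab3d in ST) to 204 (Vamp2 in ST), and both libraries nearly coincide for each gene.

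Priming factors all had ratios above 1. Unc13a, the main Munc13 of forebrain synapses, had 2198 counts in ST against 2578 in NT, 1.08-fold higher in ST (1.02 to 1.14). Unc13b had 644 counts in ST against 691 in NT, 1.18-fold higher in ST (1.05 to 1.31), the highest ratio of all members. Unc13a has whole counts and lies on mm9 chromosome 8 from 74153322 to 74195546, while Unc13b shares reads. The 3 others had intervals that held 1. Unc13c, known from cerebellum, stood at 3.11 and 2.86 RPKM with a log2 ratio of 0.11. Cadps and Cadps2, the CAPS factors that prime dense-core vesicles, had log2 ratios of 0.04 (0.978 to 1.08) and 0.03 (0.971 to 1.07). Across all measured genes, 49.2% had a log2 ratio above 0, so 5 of 5 describes a list of few genes.

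Of the active zone proteins, both giant scaffolds were higher in ST. Bsn, bassoon, had 3444 counts in ST against 3843 in NT, 1.13-fold higher in ST (1.08 to 1.18). Pclo, piccolo, had 3480 counts in ST against 3932 in NT, 1.12-fold higher (1.07 to 1.17). Pclo has whole counts and lies on mm9 chromosome 5 from 14515221 to 14795993, and Bsn shares reads. The genes behind these values are long: the RPKM values imply a counted length of 16.9 kb for Pclo, 15.9 kb for Bsn and 13.4 kb for Unc13b, the 3 longest members. The next longest, Syn3 at 12.3 kb, had an interval below 1. Across the 43 members, log2 counted length and log2 ratio had a Pearson r of 0.29 and a Spearman rho of 0.20, against 0.00 and -0.07 across all measured genes. These points come from the same 2 libraries.

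RIM proteins, which link Rab3 and calcium channels at the active zone, did not share that direction. Rims3, a short form without the Rab3-binding part, was the most abundant at 63.0 RPKM in ST and 63.6 in NT, with a ratio of 0.981 (0.956 to 1.01). Rims1 stood at 7.40 and 7.35 RPKM with a ratio of 0.999 (0.916 to 1.09). Rims2 was at 6.17 and 6.75 RPKM, with 644 counts in ST against 896 in NT and a log2 ratio of -0.14. The NT to ST ratio of Rims2 had an interval of 0.995 to 1.22, which holds 1.

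The Rab3 GTPases, which bring vesicles to the active zone, split. Rab3a, the main form in neurons, had 7329 counts in ST against 8588 in NT, 1.08-fold higher in ST (1.04 to 1.11). Rab3b had 2946 counts in ST against 3407 in NT, 1.09-fold higher in ST (1.04 to 1.15). Rab3c, on mm9 chromosome 13 from 110850530 to 111070358, had 1162 counts in ST against 1676 in NT, 1.14-fold lower in ST (1.06 to 1.23). Rab3a and Rab3b were thus higher and Rab3c lower in the ST library. Rab3d, better known from secretory cells outside the brain, had only 119 and 187 counts and a log2 ratio of -0.32 (0.633 to 1.02). The Rab3b to Rab3c count ratio was 2.54 in ST and 2.03 in NT, a factor of 1.25 (1.14 to 1.37). For Rab3a to Rab3c the ratios were 6.31 and 5.12, a factor of 1.23 (1.13 to 1.34). Rab3a and Rab3b share reads, and Rab3c does not.

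Vesicle membrane proteins were dominated by Syp and Sv2a. Syp, synaptophysin, had 19769 counts in ST against 24453 in NT, or 195 and 190 RPKM. Its ratio was 1.02, and the interval of the inverse ratio, 0.962 to 0.999, was barely clear of 1. Syp shares reads with other features, which the interval does not cover. Sypl, a relative of synaptophysin found in many cell types, had 953 counts in ST against 1390 in NT and was 1.16-fold lower in ST (1.06 to 1.26). The factor between Syp and Sypl was 1.18 (1.08 to 1.28). Sv2a, a vesicle glycoprotein of nearly all synapses, was at 164 and 163 RPKM with a ratio of 0.996 (0.974 to 1.02). Sv2b, at 9.66 and 9.82 RPKM, had a log2 ratio of -0.04. Sv2c had 95 counts in ST against 147 in NT, and its log2 ratio of -0.29 had the widest relative interval of the members, 0.623 to 1.06.

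Synapsins, which hold vesicles in reserve, were level for the main forms. Syn1 stood at 100 RPKM in ST and 99.7 in NT, with a log2 ratio of -0.01 (0.963 to 1.03), and Syn2 at 47.0 and 45.6 RPKM, with 0.03 (0.969 to 1.08). Syn3 had 812 counts in ST against 1161 in NT, 1.13-fold lower in ST (1.03 to 1.24). The gene Timp3, an inhibitor of matrix proteases, lies within Syn3 on the opposite strand, shares reads, and had 3890 counts in ST against 5893 in NT, a log2 ratio of -0.26 (0.800 to 0.868). Whether the library kit kept strand is not given in the sources used here, so reads of Syn3 and Timp3 may not be separable. Snap91, a clathrin adaptor that rebuilds vesicles after release, stood at 62.0 and 62.6 RPKM, with a log2 ratio of -0.03 (0.943 to 1.02).

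Families here hold only genes among the 43 members, so relatives outside them did not enter the shares. Within families, the same member led in both libraries except for the pair of Napa, with 50.4% in ST and 48.8% in NT, and Napb. Sv2a made up 93.3% of the SV2 RPKM in ST and 92.9% in NT. Vamp2 held 90.5% and 89.7% of the VAMP pair, and Rims3 82.3% and 81.9% of the 3 RIM members. Rims4, outside the members and not in that share, stood at 13.9 RPKM in ST and 14.5 in NT. Unc13a held 78.1% and 78.7% of the 3 Munc13 members. Rab3a held 70.7% and 69.0% of the Rab3 genes, and Rab3c 10.8% and 13.0%. The RPKM of the 9 member synaptotagmins was spread over several genes, with Syt11 at 32.7% in both libraries. Syt4, Syt5 and Syt1 followed at 17.7% to 19.6% in ST. Syt13, outside the members and not in these shares, stood at 95.3 RPKM in ST and 92.6 in NT. In ST its level was above those of Syt5 and Syt1. Syt10 took 5.13% in ST and 5.62% in NT. Over 61 pairs within families, the interval of the factor between libraries was clear of 1 for 19, of which 6 had Syt10 as the lower gene. Pairs share genes, and 36 of the 61 come from the synaptotagmins. The 6 reuse the same Syt10 counts and are not separate observations. The share over gene pairs outside these families was not computed.

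**Figure D4:**
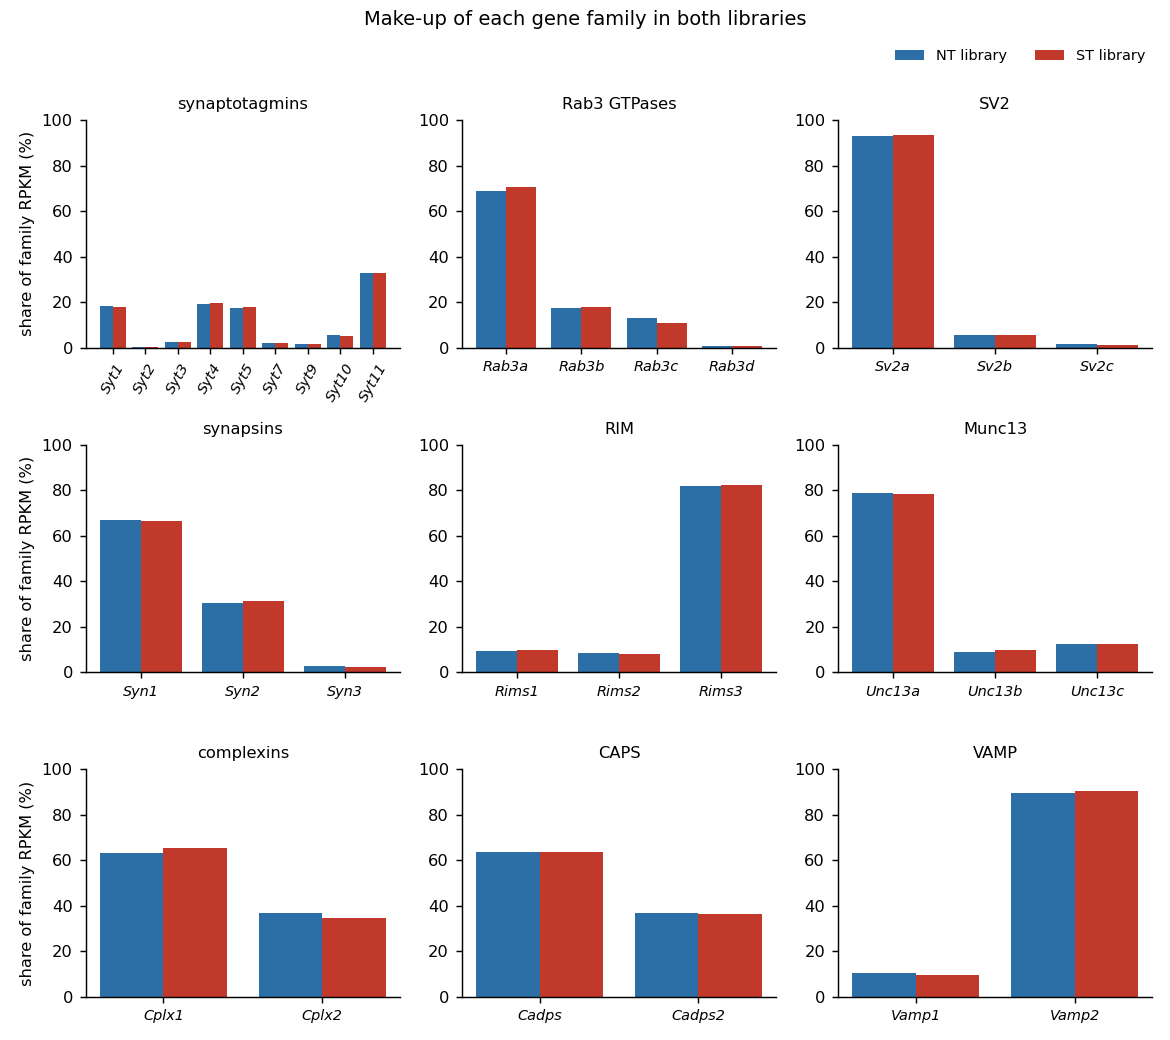
Share of each family's summed RPKM held by its members (percent, bars from 0) in the NT library (blue) and the ST library (red), for 9 families. Families hold only genes among the 43 members. Bars of the same gene are nearly level, for example Sv2a at 93.3% in ST and 92.9% in NT.

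Other genes of the presynaptic terminal were also within 2-fold. Of 117 found in the table, 115 were measured, with a median log2 ratio of 0.01, and 0 differed by 2-fold. The interval lay above 1 for 25 (21.7%, against 7.81% of measured genes) and below 1 for 17 (14.8%, against 10.2%). For the vesicle release genes the corresponding shares were 18.6% and 23.3%, from 8 and 10 genes. The lower side was the larger there, as it was among all measured genes. Among all genes whose normalised count averaged at least 1000, the shares were 12.8% and 14.1%. Among 22 SNARE partners and regulators, 4 intervals lay above 1 and 1 below. Stxbp6, a syntaxin-binding protein, was the one below, with 289 counts in ST against 471 in NT, 1.29-fold lower in ST (1.11 to 1.50). Of 19 further active zone genes, 3 intervals lay above 1 and 3 below. Lin7a, a scaffold of the Cask complex, had 124 and 199 counts, 1.27-fold lower in ST (1.01 to 1.60), and the Rab3 effector Rph3a 78.3 and 82.6 RPKM (0.910 to 0.972).

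Genes of vesicle filling and of endocytosis were also close to equal. Of 24 vesicle membrane and filling genes, 4 intervals lay above 1 and 4 below, with a median log2 ratio of 0.01. The proton pump subunit Atp6v1e1, the most abundant of them, stood at 184 and 181 RPKM (0.971 to 1.05). Of 26 endocytosis genes, 5 intervals lay above 1 and 3 below, again with a median of 0.01. Dnm1, the dynamin that cuts vesicles from the membrane, was at 150 and 147 RPKM (0.995 to 1.04).

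Calcium channel and dense-core vesicle genes had intervals on both sides of 1. Of 10 presynaptic calcium channel genes, 4 were above and 3 below, with a median of 0.03. The genes with an interval clear of 1 were named after their values were seen. On the higher side, the pore subunits Cacna1a, Cacna1b and Cacna1e had log2 ratios of 0.17, 0.11 and 0.10. On the lower side, the auxiliary subunits Cacna2d1, Cacnb4 and Cacnb3 had -0.26, -0.11 and -0.09, and Cacna2d1 differed the most of the 10 (0.714 to 0.974). Cacna2d2, also an auxiliary subunit and the most abundant channel gene, was on the higher side, at 34.1 and 32.2 RPKM. Its log2 ratio was 0.07, and the interval of the inverse ratio was 0.910 to 0.995. Auxiliary subunits thus lay on both sides. Of 14 dense-core vesicle genes, 5 intervals lay above 1 and 3 below, with a median of 0.03. Scg2, a granin that packs peptides, had 40200 counts in ST against 45240 in NT, 1.12-fold higher in ST (1.11 to 1.14), a narrow interval that reflects its depth.

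Markers of several other cell types were further apart between the libraries than the release genes. The 13 measured neuron markers had a median log2 ratio of 0.01, with 3 intervals above 1 and 0 below, and a summed level of 1580 RPKM in ST and 1500 in NT. Uchl1, the most abundant, was at 553 and 500 RPKM. All 11 SCN neuron markers were measured, with a median of -0.06 and a summed level of 1270 RPKM in ST and 1200 in NT. Of these 11, 8 had a log2 ratio below 0, and 3 intervals lay above 1 and 4 below. Avp, the most abundant, was at 656 and 563 RPKM with a log2 ratio of 0.21 (1.12 to 1.19). Vip and Nms, named after their values were seen, lay on the other side, at -0.24 (0.819 to 0.880) and -0.25 (0.738 to 0.958). All 10 oligodendrocyte markers (summed 1030 RPKM in ST and 1250 in NT, median -0.29) and all 8 endothelial markers (89.1 and 113, median -0.33) had intervals below 1. So did 6 of 8 microglial markers (97.3 and 116, median -0.27), 5 of 6 measured meningeal markers (13.2 and 23.1, median -0.80) and 5 of 8 astrocyte markers (1010 and 1050, median -0.07). The astrocyte markers were mixed, as 2 had a log2 ratio above 0 and 1 had an interval above 1.

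Markers of other neurons were mixed. Those of glutamatergic or aminergic neurons, led by Slc17a6 at 15.8 and 16.2 RPKM, had a summed level of 33.4 RPKM in ST and 37.1 in NT. Their 4 measured genes had a median of -0.15, with 2 intervals below 1. Neighbouring hypothalamic peptides and factors summed to 934 RPKM in ST and 781 in NT, of which Oxt made up 812 and 655. Their 6 measured genes had a median of -0.24, with 4 of 6 below 0, 2 intervals above 1 and 3 below, so the median and the sum differ in direction. Pomc, named after its values were seen, was at 7.19 and 37.9 RPKM. No marker was at 0 in either library. The part of these markers in the ratios of the release genes was not tested. In whole tissue, fewer cells of a type and less RNA per cell cannot be told apart.

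**Figure D5:**
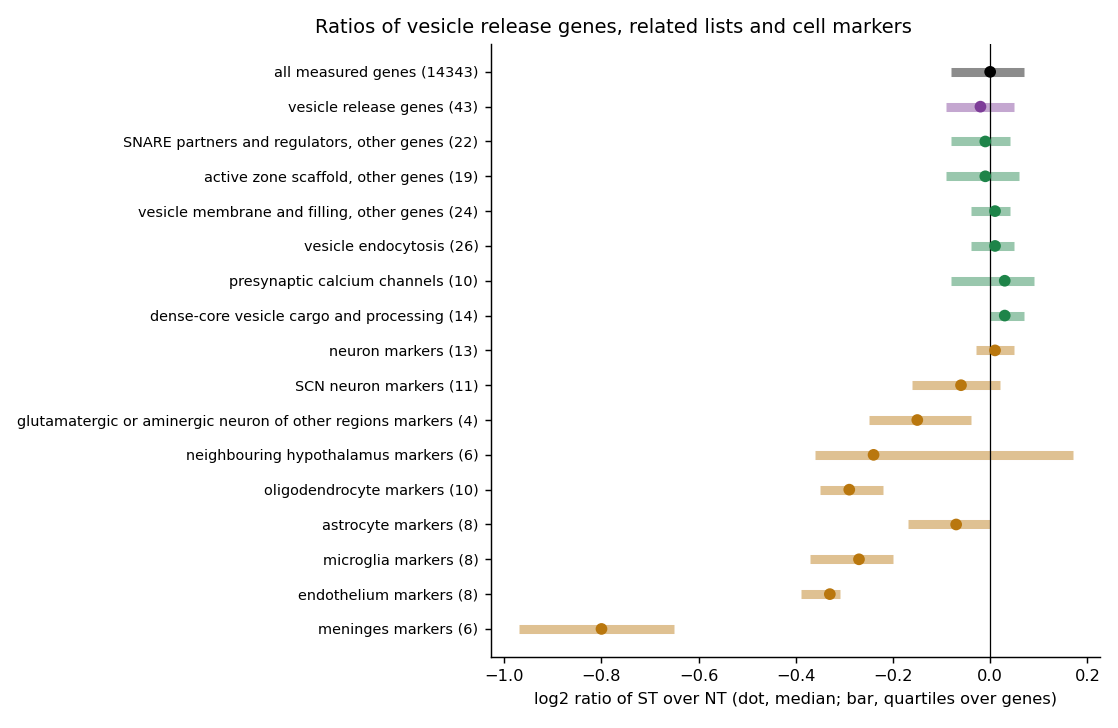
Median (dot) and quartiles over genes (bar) of the log2 ratio of ST over NT for all measured genes, the vesicle release genes, related presynaptic lists and cell type markers, with the number of measured genes in parentheses. The release genes have a median of -0.02 and the meningeal markers one of -0.80.

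Counts summed to 19476800 for ST and 24790727 for NT, and the 43 members took 1.04% of each total. Member counts were high enough that the ratio of the interval's ends was between 1.04 and 1.71. For 43 of 43 members the authors' deposited table gives an adjusted p of 1, and the lowest unadjusted p in the authors' deposited table was 0.13, for Unc13b. That test also rests on 1 library per group.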

How the data were processed

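SCN tissue of 2 groups was sequenced as 1 poly-A library per group. CASAVA 1.8.2, TopHat 1.2, DESeq and build mm9 are named, with no role or order, per the submitters' processing notes. The authors deposited estimated counts per gene, RPKM, RPM (not used further) and a comparison with a fold ratio, its log2 value and a p-value, per the file headers. The counter is not given in the sources used here. 3 columns of mean values were not used. Of the table's Ensembl identifiers, 23161 were found in GENCODE vM1 (mm9), with 99.6% overlapping the gene of that identifier.

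Fractional counts (45.2% of genes, tolerance 1e-06) were rounded. Size factors by median of ratios were 0.89 (ST) and 1.12 (NT). Log2 ratios used normalised counts plus a pseudocount of 0.5. A gene counted as measured where its normalised count averaged at least 50, which all 43 members were. The 95% interval comes from the Clopper-Pearson limits on the fraction of a gene's 2 counts that fell in ST, corrected for size factors. Factors between paralogues carry exact conditional odds ratio intervals. With 1 library per group, intervals cover counting error only. Reads carried no molecular identifiers, so any duplicate copies were counted as separate reads and the intervals may be too narrow. On data simulated with counting error alone for 14329 genes at these depths, intervals held the true ratio for 95.5%. The interval assumes that same model, so this checks the calculation only. It cannot speak to variation between mice, dissections or libraries.

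Every member is named. Of related genes, those at least 1.2-fold apart with the interval clear of 1 are named, at most 4 a list, and otherwise the most abundant. For markers the rule names the most abundant of each list. This was done for the neuron, SCN neuron, glutamatergic or aminergic neuron and neighbouring hypothalamus lists. The other marker lists are given as counts, sums and medians only. Rph3a, the calcium channel genes other than Cacna2d2, and the markers Vip, Nms and Pomc were named outside this rule after their values were seen. The same holds for Rims4 and the synaptotagmins outside the members. An item that this rule would name is not reported here. Vamp7, Slc18a3 and Map2 were not matched by name, and Rbfox3 was matched by its Ensembl identifier. Members and lists were chosen with earlier results of these data known. Alternatives were other scalings, filters, pseudocount, size rule and whole counts only. Tools were Python 3.11.15, scipy 1.17.1 and edgeR 4.0.16 (TMM factors only).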

Additional observations from a re-analysis of the deposited data

How the results depend on the processing

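No paired analysis was possible because there is 1 library for each group, which also leaves no replicate to omit. With whole counts only, 27 members remained in the count, and 3 had an interval above 1 and 5 below, in place of 8 and 10, since fewer genes entered. Total-count scaling, TMM factors, filters of 10, 200 and 1 read, and scaling to the median of 13 neuron markers, a setting added with the data in view, gave 7 to 8 intervals above 1 and 9 to 13 below. The shares of all measured genes moved too, from 7.81% above and 10.2% below to 9.91% and 8.71% with total counts and to 5.95% and 12.5% with neuron markers, where the members' counts were 8 and 9, and 7 and 13. The number of members at least 2-fold apart stayed 0 in each direction under each of these settings, with a pseudocount of 5 and at 1.2-fold with the interval clear of 1. The median log2 ratio of the members ranged from -0.03 (neuron markers) to -0.004 (total counts). Log2 ratios moved by 0.012 with total-count scaling and by -0.014 with neuron marker scaling, nearly the same for every member. The median half-width of the members' intervals was 0.0728 in log2. All 199 member values under scaling, pseudocount and whole-count alternatives stayed within the counting interval. Shifts this small left little room for another outcome, and whole-count values repeat the main ones, so the 199 are not separate checks. Rab3d and Sv2c fell below a filter of 200. At this depth the ratio of Sv2c is known only to 0.623 to 1.06.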
